A study of Mus musculus with 15 samples.

Results

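The genes described here encode the receptors by which a cell holds its matrix and the proteins that couple them to actin. They were chosen by symbol alone: every gene whose symbol begins with Itga or Itgb, apart from 4 genes of integrin-associated or related proteins (Itgb1bp1, Itgb1bp2, Itgb3bp and Itgbl1), together with Cd44, Ddr1, Ddr2, Dag1, Sdc1 to Sdc4, Ilk, Ptk2, Fermt1, Fermt2, Tln1, Tln2, Parva and Lims1. This rule found 43 of the 27179 genes in each of the authors' 4 deposited tables, of which 27 are integrin subunits, 18 alpha and 9 beta, and 16 are other receptors or cytoplasmic partners. The rule itself uses no measured value, but it was set with earlier results of these data known. A base mean, the mean of the normalised read counts over the libraries of a table, of 100 or more in at least 1 table was reached by 31 members, 17 of them integrin subunits.

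The cells were mouse induced renal tubular epithelial cells (iRECs), which were reprogrammed from fibroblasts with introduced transcription factors of the tubule such as Pax8, Emx2 and Hnf4a. All groups carry these factors and grew in Renal Epithelial Growth Medium (REGM) until RNA was taken on day 7. The control group was cultured on flat plates (2D), and the other 4 groups were cultured in 3D: in Matrigel, a basement membrane extract rich in laminin, in fibrin, in collagen I, each dispensed by hand, and in fibrin with collagen I after inkjet bioprinting, called printed cultures below. Each group held 3 libraries, 15 in all, from passages 35, 48 and 53 of 1 cell line, and at each passage all groups were set up from a common pool of cells. The replicates are therefore cultures of 1 line, and the p-values measure the spread between these cultures. Each deposited table compares 1 microenvironment with the same 3 libraries in 2D, and the table of the printed cultures is named for collagen alone, although these libraries are labelled fibrin and collagen I.

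An integrin is a pair of 1 alpha and 1 beta subunit, and the pair sets which matrix protein is bound: alpha1, alpha2, alpha10 and alpha11 with beta1 bind collagen, alpha3, alpha6 and alpha7 bind laminin, and alpha5, alpha8 and alphav recognise the Arg-Gly-Asp motif of fibronectin, vitronectin and fibrin. Talin and kindlin bind the beta tail and switch the receptor on, and the complex of ILK, PINCH and parvin with focal adhesion kinase passes the signal inward. In the kidney tubule, alpha3beta1 and alpha6beta4 anchor the epithelium to the laminins of its basement membrane, and alphavbeta6 and alphavbeta8 activate latent TGF-beta. None of these statements is a result of the present data.

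The epithelial label was checked first. All 12 renal epithelial markers had a base mean of 100 or more in each of the authors' deposited tables, with Cdh16, the kidney-specific cadherin, between 47158 and 64782. Among these markers, Cdh1 and Epcam rose in Matrigel, Pax8 fell in fibrin and in collagen I, Krt8 fell in collagen I, and Krt19 rose in the printed cultures. The pan-leukocyte gene Ptprc lay between 0.646 and 3.02 in the authors' deposited tables and the T cell gene Cd3e at 0. Other leukocyte markers were measured well above this: in the authors' deposited tables Cd14 lay between 3115 and 6348, Cd68 between 327 and 944, and Csf1r between 322 and 722. Cd14 rose in fibrin, Cd68 rose in the printed cultures with an adjusted p of 2.1e-09 from DESeq2, and Csf1r rose in the printed cultures at log2 0.71 ± 0.22 and fell in Matrigel at -1.31 ± 0.23 and in collagen I at -1.50 ± 0.27 in the authors' deposited tables. The part of these genes in the members' values was not tested. Of 10 endothelial markers, only Flt1 and Egfl7 reached a base mean of 100, of which Flt1 rose in fibrin and in the printed cultures. Of 12 fibroblast markers, Thy1 was at 0 in 3 tables and at 0.333 in the fourth, Vim lay between 4996 and 6472, Col1a1 fell in fibrin and in collagen I, Pdgfra fell in fibrin, and S100a4 rose in fibrin, collagen I and the printed cultures. In units of 1000000 normalised reads, the base means summed to 42.8 to 45.4 per table, and the depth of single libraries is unknown. In bulk RNA, fewer cells of a type and less RNA per cell cannot be told apart.

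The receptor set of these cells in 2D was led by Itgb1, the beta subunit common to most matrix-binding integrins, Itga3 and the heparan sulphate proteoglycan Sdc4. Levels were worked out from base mean and fold change in the authors' deposited tables and are given as normalised reads per kb of exon, so that genes can be compared. Itgb1 stood at 10293, Itga3 at 7842 and Sdc4 at 6816 per kb in 2D. Ddr1, a receptor tyrosine kinase for collagen, followed at 3201 and Tln1, the widely expressed talin, at 1836. Among laminin receptors Itga6 stood at 1401, the dystroglycan gene Dag1 at 1257, Itgb4 at 648 and Itga7 at 110. Among collagen-binding alpha subunits Itga2 had 233 and Itga1 212 per kb, and Itga10 had 23.7. Alpha subunits of the Arg-Gly-Asp class spread widely, with Itga5 at 698, Itgav at 406, Itga2b at 19.4 and Itga8 at 0.0857. Of the beta subunits that pair with alphav, Itgb6 stood at 593, Itgb5 at 485 and Itgb3 at 422. Itgb8, the other TGF-beta-activating beta subunit, was the lowest of the 31 at 13.8. The tables give no spread between libraries for a level, so neighbours in this order cannot be separated, and the 4 tables returned the 2D level of Itga3 between 44128 and 45497 normalised reads.

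**Figure D1:**
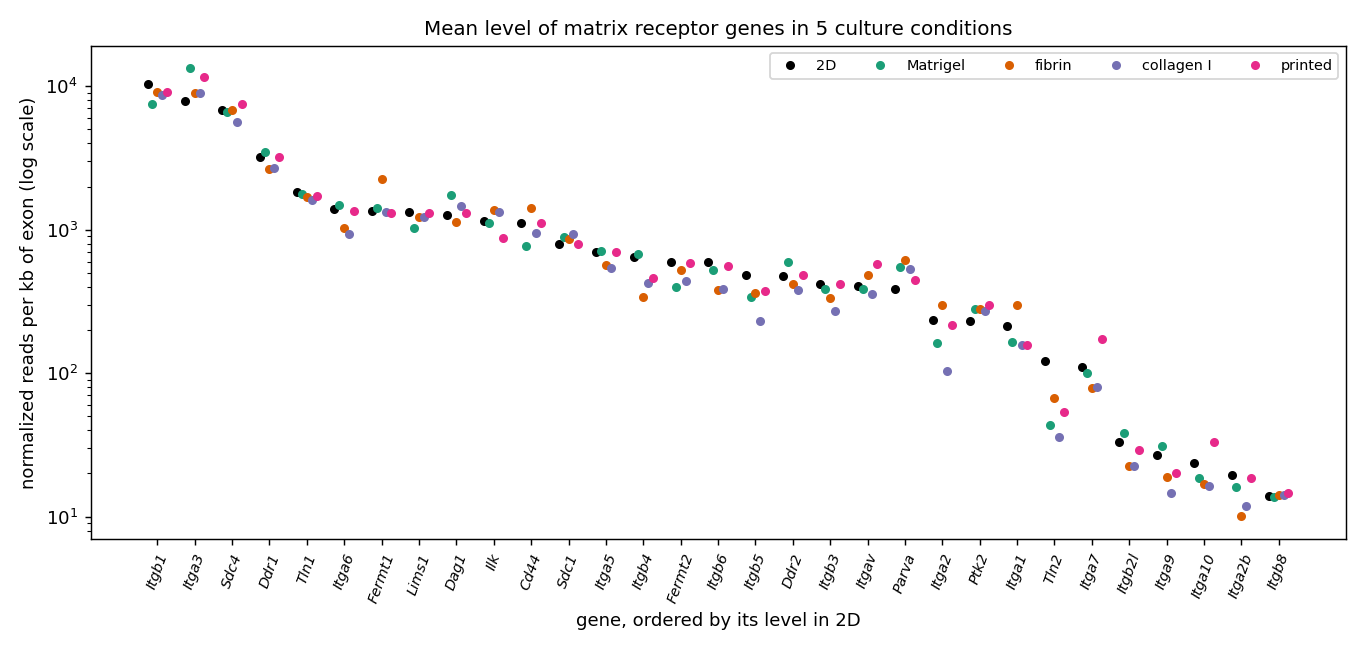
Mean level of the 31 members whose base mean was 100 or more, in normalised reads per kb of exon (log scale), in 2D and the 4 microenvironments, ordered by the 2D level. Points are values worked out from the authors' deposited tables, without error bars because no value per library is given; Itgb1 leads in 2D at 10293, and Tln2 lies at 122 in 2D and between 35.7 and 67.2 in the other conditions.

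Counted over all members, the changes were few and the background of all genes has to be read beside them. Rising or falling here means an adjusted p under 0.05 in the authors' DESeq2 Wald test. In Matrigel 36 members had an adjusted p, of which 1 rose and 2 fell, where 4.03% of all tested genes rose and 2.32% fell. In fibrin 2 of 36 rose and 2 fell, against 5.19% and 3.11% of all genes. In collagen I 0 of 35 rose and 6 fell, against 6.51% and 4.65% of all genes. In the printed cultures 0 of 37 rose and 1 fell, against 2.51% and 0.675% of all genes. An unadjusted p under 0.05 was reached by 9, 11, 11 and 6 members in that order. The share of all genes at that unadjusted threshold is not given here, so these counts cannot be read against a background. In collagen I 17.1% of the members fell, and in the other conditions the counts of 0 to 2 are too small to be read against the background. The 4 comparisons share the 2D libraries, so their values stand side by side and are not independent of one another.

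The integrin subunits lay mostly below their 2D level in the collagen gel. Of the 17 with a base mean of 100 or more, 15 had a log2 fold change below 0 in the authors' deposited table for collagen I, with a median of -0.54, while the 14 other members of that level had a median of -0.16. The median of all genes tested there was 0.01, and 48.9% of them lay below 0. In fibrin the 17 subunits had a median of -0.43 with 12 below 0, in Matrigel -0.12 with 11 below 0, and in the printed cultures -0.11 with 12 below 0. These medians describe the list, most single members of which did not pass the test. Of the 43 members, 10 passed in at least 1 table and 1, Tln2, in all 4.

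**Figure D2:**
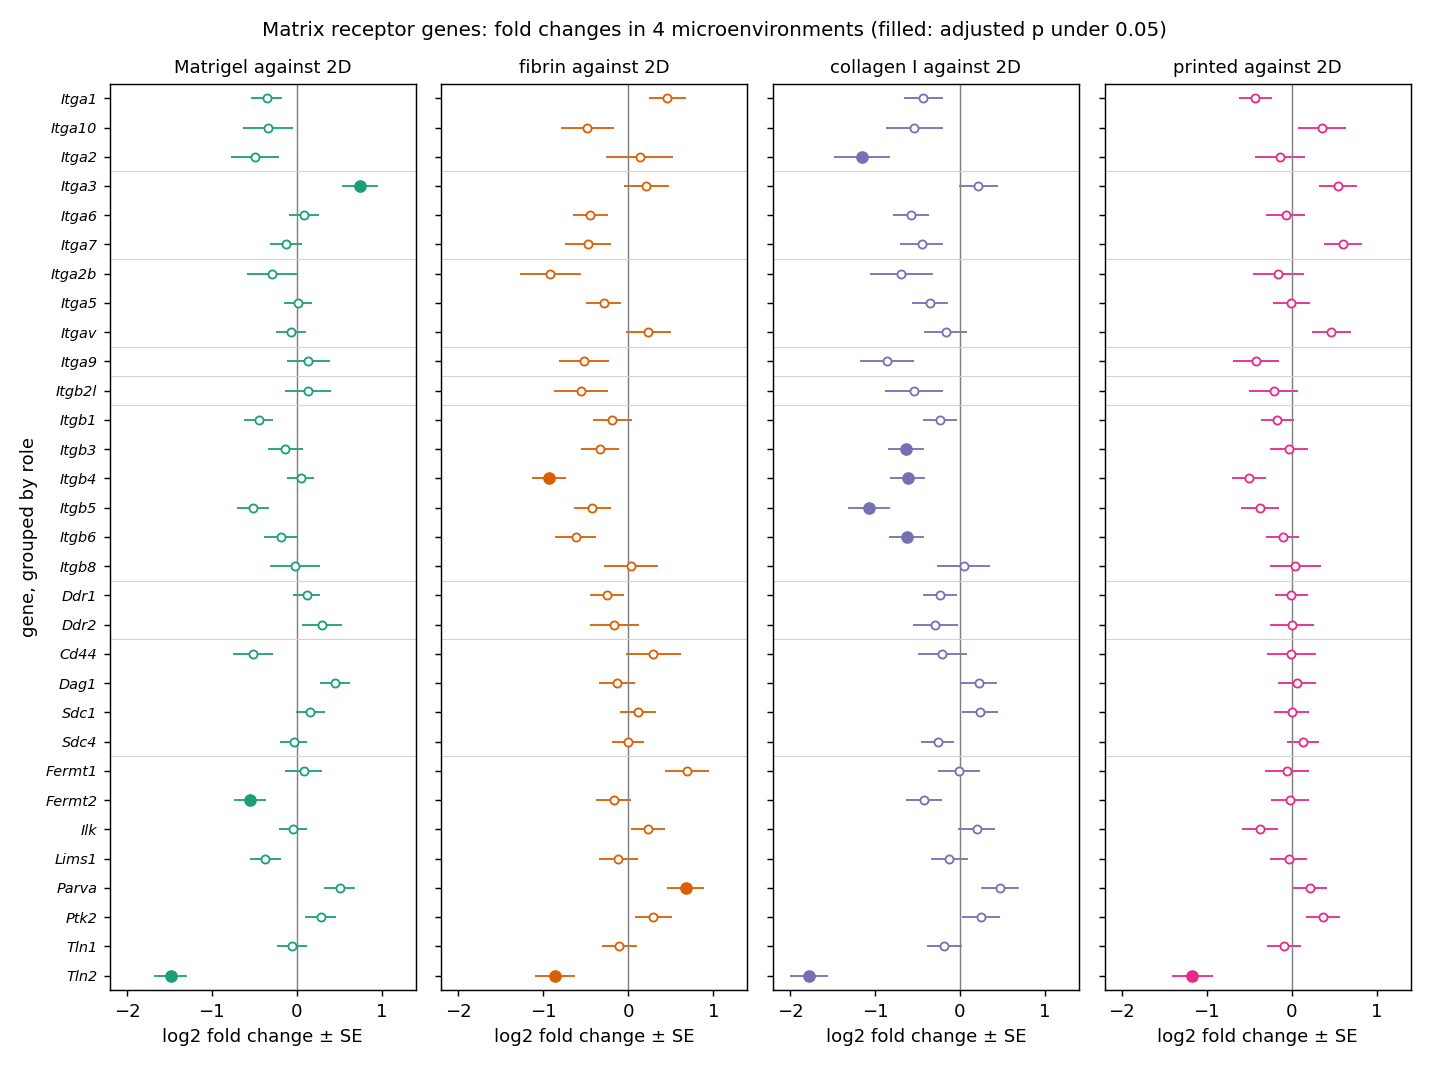
Log2 fold change against 2D of the 31 members whose base mean was 100 or more, 1 panel per microenvironment, with bars of 1 standard error from the authors' deposited tables; genes are grouped by role and filled points have an adjusted p under 0.05. In the collagen I panel 15 of the 17 integrin subunits lie left of 0, and Tln2, in the lowest line, is filled in every panel.

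Collagen receptors did not rise in the collagen gel. Itga2 (gene 16398, chromosome 13, 114833081 to 114932100, GRCm38), the alpha subunit of the alpha2beta1 collagen receptor of epithelia, had an implied level of 1664 normalised reads in 2D and 738 in collagen I. Its log2 fold change there was -1.15 ± 0.33 with an adjusted p of 0.0077 in the authors' deposited table, a fall to 45.0% of 2D. In Matrigel Itga2 was at -0.49 ± 0.28, in fibrin at 0.14 ± 0.39 and in the printed cultures at -0.14 ± 0.29, none of which passed. Itga1, the alpha subunit that prefers basement membrane collagen IV, did not pass anywhere: the authors' deposited tables gave -0.36 ± 0.19 in Matrigel, 0.46 ± 0.22 in fibrin, -0.43 ± 0.23 in collagen I and -0.43 ± 0.20 in the printed cultures. Fibrin was thus the 1 gel with a value above 0 for Itga1. Itga10, a collagen receptor best known from cartilage, lay at a base mean of 100 to 158 and between -0.54 ± 0.33 in collagen I and 0.36 ± 0.28 in the printed cultures in the authors' deposited tables. Itga11, which binds fibrillar collagen in mesenchymal cells, had a base mean of 3.21 or less and no adjusted p. The collagen receptor kinases Ddr1 and Ddr2 were at -0.23 ± 0.20 and -0.29 ± 0.26 in collagen I in the authors' deposited table and passed in none of the 4. A stricter test divided the Wald statistics by their own spread over all genes (a scaled median absolute deviation of 1.57 in collagen I, where 1 is assumed), and the adjusted p of Itga2 there became 0.43.

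Among the laminin receptors, Itga3 rose in the laminin-rich gel. Itga3 (gene 16400, chromosome 11, 95044475 to 95076844) had an implied level of 44776 normalised reads in 2D and 76093 in Matrigel, and the authors' deposited table gave log2 0.74 ± 0.21 with an adjusted p of 0.011, a rise of 1.67-fold. The other gels gave Itga3 values above 0 that did not pass, 0.21 ± 0.26 in fibrin, 0.22 ± 0.23 in collagen I and 0.55 ± 0.23 in the printed cultures in the authors' deposited tables. Its partner Itgb1 did not pass: in Matrigel it stood at -0.45 ± 0.17, with an adjusted p of 0.096 in the authors' deposited table. Itga6, the alpha subunit of the hemidesmosomal receptor, was at 0.09 ± 0.18 in Matrigel and at -0.58 ± 0.21 in collagen I, where its adjusted p of 0.053 in the authors' deposited table missed the threshold. Itga7, the laminin receptor of muscle, showed its highest value in the printed cultures, 0.60 ± 0.22 with an adjusted p of 0.14 in the authors' deposited table. Dag1, whose product links laminin to the cytoskeleton through dystrophin or utrophin, was at 0.45 ± 0.18 in Matrigel with an adjusted p of 0.12 in the authors' deposited table. With the Wald statistics divided by their own spread, the adjusted p of Itga3 in Matrigel became 0.14. Cdh1 and Epcam rose in the same gel, at log2 0.90 ± 0.16 and 0.87 ± 0.16 in the authors' deposited table, and their part in the value of Itga3 was not tested.

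Itgb4, the beta subunit found only in alpha6beta4 and the core of the hemidesmosome, fell in fibrin and collagen I. The gene (192897, chromosome 11, 115974725 to 116008412) had an implied level of 4547 normalised reads in 2D, 4762 in Matrigel, 2380 in fibrin, 2972 in collagen I and 3209 in the printed cultures. The authors' deposited tables gave log2 -0.93 ± 0.20 with an adjusted p of 0.00014 in fibrin and -0.62 ± 0.21 with 0.033 in collagen I. In Matrigel Itgb4 was at 0.05 ± 0.16, and the printed cultures gave -0.50 ± 0.20 with an adjusted p of 0.18 in the authors' deposited tables. The fibrin call passed with the Wald statistics divided by their own spread, with an adjusted p of 0.028, and the collagen I call did not, with 0.63. Of all tested genes, 0.675% to 4.65% fell and 2.51% to 6.51% rose, depending on the microenvironment. Of 20 partners of integrins in the membrane and the hemidesmosome, 0 fell in any table, a count too small to be read against this background. In that list the tetraspanin Cd9 rose in the printed cultures at 0.65, the thrombospondin receptor Cd47 rose in fibrin at 0.85 while 0 rose in Matrigel, in the authors' deposited tables, and the urokinase receptor Plaur rose in collagen I at 1.2.

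Beta subunits that pair with alphav fell in collagen I. Itgb5 (gene 16419, chromosome 16, 33829665 to 33949338), the vitronectin receptor subunit, had an implied level of 1723 normalised reads in 2D and 816 in collagen I, and the authors' deposited table gave log2 -1.07 ± 0.25 with an adjusted p of 0.00057. Itgb6, the epithelial activator of TGF-beta, was at -0.63 ± 0.21 with an adjusted p of 0.029 in the authors' deposited table for collagen I, and Itgb3, which joins alphav in the receptor for vitronectin and fibrin, at -0.63 ± 0.22 with 0.035. With the falls of Itgb4 and these 3 genes, 4 of the 6 beta subunits outside the leukocyte group fell in collagen I. Itgb1 and Itgb8 were the others, at -0.24 ± 0.20 and 0.04 ± 0.32 in the authors' deposited table. Values below 0 were not particular to collagen I. For Itgb6 the authors' deposited table gave -0.62 ± 0.24 in fibrin with an adjusted p of 0.092, close to its collagen I value. Itgb6 was at -0.19 in Matrigel and -0.11 in the printed cultures. Itgb5 was at -0.51 ± 0.19 in Matrigel (adjusted p = 0.091), -0.43 in fibrin and -0.37 in the printed cultures. None of these values of Itgb5 and Itgb6 passed. Their common partner Itgav did not pass in any table and ranged from -0.17 ± 0.25 in collagen I to 0.47 ± 0.23 in the printed cultures in the authors' deposited tables. In fibrin, a ligand of alphavbeta3, Itgb3 stood at -0.33 ± 0.22 and Itgav at 0.24 ± 0.27 in the authors' deposited table, and neither passed. Itga5, the fibronectin receptor subunit, lay between -0.36 ± 0.21 in collagen I and 0.02 ± 0.16 in Matrigel in the authors' deposited tables and passed in none. Itga2b, the platelet fibrinogen receptor subunit, lay near a base mean of 100 and reached -0.92 ± 0.35 in fibrin with an adjusted p of 0.088 in the authors' deposited table. Itga9, a receptor for tenascin and osteopontin, was at -0.86 ± 0.31 in collagen I with an adjusted p of 0.055 in the authors' deposited table. With the Wald statistics divided by their own spread, Itgb5, Itgb6 and Itgb3 had adjusted p-values of 0.21, 0.61 and 0.63 in collagen I.

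The start regions of members that moved are shown so that their letters can be set beside these values. RefSeq windows on GRCm38.p6 were matched for 31 of the 43 members, and Tln2, Itgb3, Itgb4 and Parva have no entry among them. Printed are the 250 bases before an annotated start of Itga2 (chr13:114932101-114932350, minus strand), Itgb5 (chr16:33829415-33829664, plus strand) and Itgb6 (chr2:60722604-60722853, minus strand), 3 integrin genes that fell in collagen I, and of Itga3 (chr11:95076715-95076964, minus strand), the integrin gene that rose in Matrigel. Each runs 5′ to 3′ on the strand of its gene, and capitals mark the GC box GGGCGG and the SMAD-type motif CAGAC or their reverse complements, CCGCCC and GTCTG.
Itga2: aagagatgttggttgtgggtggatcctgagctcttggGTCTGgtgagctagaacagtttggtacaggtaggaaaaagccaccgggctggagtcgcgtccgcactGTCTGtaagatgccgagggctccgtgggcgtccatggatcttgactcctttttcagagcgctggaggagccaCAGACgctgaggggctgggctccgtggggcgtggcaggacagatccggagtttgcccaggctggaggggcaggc
Itgb5: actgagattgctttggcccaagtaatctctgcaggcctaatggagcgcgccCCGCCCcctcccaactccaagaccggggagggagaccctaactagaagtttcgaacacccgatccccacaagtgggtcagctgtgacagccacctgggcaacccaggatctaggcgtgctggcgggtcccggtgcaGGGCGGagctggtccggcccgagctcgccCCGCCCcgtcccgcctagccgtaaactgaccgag
Itgb6: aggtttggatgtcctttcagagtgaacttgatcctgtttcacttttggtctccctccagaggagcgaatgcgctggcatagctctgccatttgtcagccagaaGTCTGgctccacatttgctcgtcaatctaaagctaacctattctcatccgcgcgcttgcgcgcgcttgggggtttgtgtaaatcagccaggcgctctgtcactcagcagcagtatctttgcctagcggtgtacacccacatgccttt
Itga3: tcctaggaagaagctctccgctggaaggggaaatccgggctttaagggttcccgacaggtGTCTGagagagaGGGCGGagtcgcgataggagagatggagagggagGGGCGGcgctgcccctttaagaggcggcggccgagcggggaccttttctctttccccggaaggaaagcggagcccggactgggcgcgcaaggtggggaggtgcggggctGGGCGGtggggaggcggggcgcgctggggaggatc
The Itga2 window holds 3 CAGAC matches and 0 GC boxes, Itgb5 holds 3 GC boxes and 0 CAGAC matches, Itgb6 holds 1 CAGAC match and 0 GC boxes, and Itga3 holds 3 GC boxes and 1 CAGAC match. Neither motif was thus found in all 3 windows shown of genes that fell in collagen I. The contents depend on the start chosen: another window of Itgb6 holds 0 GC boxes and 0 CAGAC matches. Another window of Itga3 holds 1 GC box and 0 CAGAC matches. Among all 32851 windows of this length, 32.7% hold a GC box and 42.2% a CAGAC match on either strand, and among the first windows of the 31 members 14 hold the one and 14 the other. The AP-1 motif TGANTCA was in 1 of the 31, with 6.75% of all windows, the TEAD motif GGAATG in 2, with 12.6%, and the hypoxia core ACGTG in 3, with 16.6%. A match is a string of letters and not a measured binding site.

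In all, 12 members stayed under a base mean of 100 in every table, and 6 of them had no adjusted p anywhere. Most are leukocyte integrins. The alpha subunits Itgal and Itgae had base means of up to 27.4 and 24.0, Itgb7 of up to 8.61, and Itgad and Itgax of under 1, as had Itga4 and Itga8, in the authors' deposited tables. Itgam, the alpha subunit of the complement receptor of macrophages, was called higher in fibrin at log2 1.24 ± 0.40 with an adjusted p of 0.028 in the authors' deposited table, at a base mean of 24.9. Worked out from base means with the 2D level of the other tables, on a common scale, this value was 1.86. Its obligate partner Itgb2 had base means of 3.57 to 9.57 in the authors' deposited tables. The summed level of the 12 leukocyte markers in the same comparison went from 4210 in 2D to 10242 in fibrin, of which Cd14, a lipopolysaccharide co-receptor that epithelial cells also express, rose at 1.54 ± 0.22 in the authors' deposited table. In Matrigel, collagen I and the printed cultures the same sum was 4525, 4107 and 5697. Only Cd14, Cd68 and Csf1r of that list reached a base mean of 100, and Ptprc stood at 3.02 and Tyrobp at 0 in fibrin in the authors' deposited table. The part of these markers in the value of Itgam was not tested, and with the Wald statistics divided by their own spread its adjusted p became 0.33. Itgb2l, a beta2-like gene, lay at base means of 116 to 159 and passed in no table. Itgad and Itgax shared 8.43% and 8.02% of their stretches of 50 bases with other members, so their few reads are uncertain.

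The receptors for hyaluronan and the syndecans passed in no comparison. Cd44, the hyaluronan receptor, ranged from -0.52 ± 0.23 in Matrigel to 0.29 ± 0.32 in fibrin in the authors' deposited tables. Sdc1, the epithelial syndecan, lay between 0.00 and 0.24, and Sdc4, which works beside alpha5beta1 in focal adhesions, between -0.26 and 0.14 in the authors' deposited tables. Sdc2 and Sdc3 had base means of up to 4.74 and 20.6. Members that passed in no table and had a base mean of 100 or more numbered 22, with a median standard error of 0.18 in Matrigel and 0.22 to 0.23 in the other tables, which limits how small a change could have been called.

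The cytoplasmic machinery held the one member that fell everywhere, Tln2. Talin-2 is a paralogue of talin-1 that binds beta tails more tightly and supports strong traction. Tln2 (gene 70549, chromosome 9, 67217085 to 67634045) had an implied level of 2237 normalised reads in 2D, 795 in Matrigel, 1233 in fibrin, 654 in collagen I and 992 in the printed cultures. All 4 levels in 3D were below the 2D level. The authors' deposited tables gave log2 -1.49 ± 0.19 (adjusted p = 5.8e-12) in Matrigel and -0.86 ± 0.23 (0.0052) in fibrin. Collagen I gave -1.78 ± 0.22 (adjusted p = 2.4e-13) and the printed cultures -1.17 ± 0.24 (0.00019) in the authors' deposited tables. Tln2 thus stood at 35.7%, 54.9%, 29.2% and 44.5% of 2D in that order. Tln1 passed in none: its values were -0.05 ± 0.18, -0.11 ± 0.21, -0.19 ± 0.20 and -0.09 ± 0.20 in the authors' deposited tables. Per kb of exon, Tln2 made up 6.23% of both talins together in 2D, 2.39% in Matrigel, 3.79% in fibrin, 2.17% in collagen I and 3.03% in the printed cultures. Tln1 and Tln2 shared 0 stretches of 50 bases, so reads of the pair could be told apart by sequence. With the Wald statistics divided by their own spread, Tln2 passed in Matrigel, collagen I and the printed cultures, and in fibrin its adjusted p became 0.15. The 4 values share the 2D libraries, so they are not 4 independent falls.

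**Figure D3:**
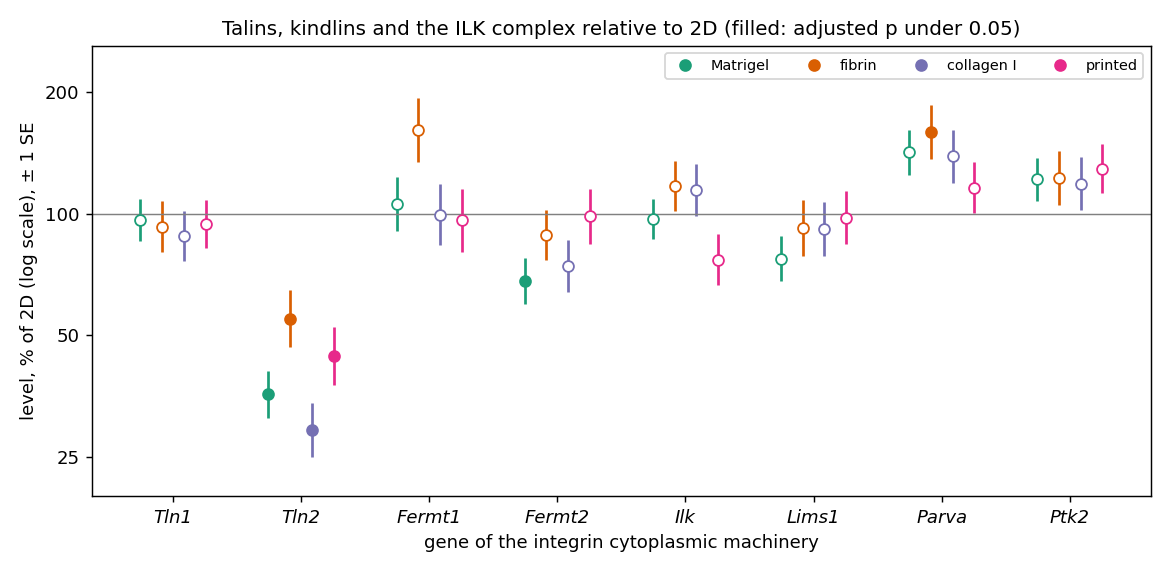
Level of 8 genes of the integrin cytoplasmic machinery as percent of 2D (log scale) in the 4 microenvironments, with bars of 1 standard error from the authors' deposited tables; filled points have an adjusted p under 0.05. Tln2 lies between 29.2% and 54.9% in the 4 conditions while the points of Tln1 are open and lie between 87.9% and 96.4%.

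Kindlins and the ILK complex showed single calls. Fermt2, kindlin-2, was at log2 -0.55 ± 0.19 in Matrigel with an adjusted p of 0.048 in the authors' deposited table and passed in no other. Fermt1, the epithelial kindlin, reached 0.69 ± 0.26 in fibrin with an adjusted p of 0.082 in the authors' deposited table, against 0.08, -0.01 and -0.05 in the other 3. Parva, which links ILK to actin, rose in fibrin at 0.67 ± 0.22 with an adjusted p of 0.033, and stood at 0.51 ± 0.18 in Matrigel with 0.080 in the authors' deposited tables. Ilk, the scaffold of that complex, lay between -0.38 ± 0.21 in the printed cultures and 0.23 ± 0.20 in fibrin, and Lims1, which encodes its partner PINCH-1, between -0.37 ± 0.18 in Matrigel and -0.03 ± 0.22 in the printed cultures in the authors' deposited tables. Ptk2, focal adhesion kinase, had values of 0.25 to 0.37 in the authors' deposited tables and did not pass. With the Wald statistics divided by their own spread, Fermt2 and Parva had adjusted p-values of 0.30 and 0.35. Without the authors' filter on low base means Fermt2 did not pass either. In a list of 41 further focal adhesion genes, with 37 given an adjusted p, Matrigel had 1 that rose and 1 that fell (Vasp, 0.53, and Csrp1, -0.67), 2 fell in fibrin (Lims2, -1.01, and Kank1, -1.01), 1 fell in collagen I (Kank1, -0.98) and 0 passed in the printed cultures in the authors' deposited tables. The medians of this list were -0.16, -0.03, -0.14 and 0.08 in that order. Its counts have to be read beside the shares of all tested genes given with the counts of members.

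Several genes of integrin ligands changed in the same cultures. Of 34 genes of matrix proteins that integrins bind, 27 had an adjusted p in Matrigel, where 0 rose and 3 fell. In fibrin 3 rose and 7 fell among 26, in collagen I 1 rose and 8 fell among 24. In the printed cultures 2 rose and 1 fell among 26. Of all tested genes 4.03%, 5.19%, 6.51% and 2.51% rose in Matrigel, fibrin, collagen I and the printed cultures. In that order 2.32%, 3.11%, 4.65% and 0.675% fell. Fn1, fibronectin, the ligand of alpha5beta1, fell to log2 values of -1.97 in Matrigel and -1.73 in collagen I in the authors' deposited tables. Lama3, a chain of laminin-332, which alpha3beta1 and alpha6beta4 bind, fell to -2.22 in fibrin and -1.19 in collagen I, the gels in which Itgb4 fell, in the authors' deposited tables. Lamb3, another chain of this laminin, fell to -1.61 in collagen I in the authors' deposited table. Spp1, osteopontin, an Arg-Gly-Asp ligand of alphavbeta3, rose at 1.47 in fibrin in the authors' deposited table. Whether the levels of ligands and receptors are linked was not tested. Of 21 matrix receptors outside the rule, 16, 15, 15 and 17 had an adjusted p in Matrigel, fibrin, collagen I and the printed cultures. Among these, 0 rose and 4 fell in Matrigel, and 0 rose and 4 fell in fibrin. In collagen I 1 rose and 6 fell, and in the printed cultures 0 rose and 1 fell. The same shares of all tested genes apply to these counts. Lrp1, an endocytic receptor that clears integrins and matrix proteases, fell to -0.96, -1.06 and -0.96 in Matrigel, fibrin and collagen I in the authors' deposited tables.

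Direct differences between the microenvironments were computed for 6 pairs, as the difference of the fold changes from the authors' deposited tables with their standard errors taken as independent and adjustment over all genes. In Matrigel minus fibrin 1 of 35 members passed, with 1.13% of all genes. Itgb4 was higher in Matrigel by 0.98 ± 0.26 (95% interval 0.47 to 1.48) with an adjusted p of 0.018. In the other pairs 0 members passed by this test: the share of all genes was 0.478% for Matrigel minus collagen I, 0.612% for Matrigel minus printed, 0.548% for fibrin minus collagen I, 1.4% for fibrin minus printed and 0.89% for collagen I minus printed. At an unadjusted p under 0.05 the 6 pairs held 5, 3, 2, 3, 6 and 4 members, again without the share of all genes at that threshold. The level of Itga3 in Matrigel is therefore not shown to differ from that in fibrin, 0.53 with an interval of -0.13 to 1.19, or from that in the printed cultures, 0.20 with -0.41 to 0.80. For Itga2 the difference of fibrin minus collagen I was 1.29 with an interval of 0.28 to 2.29 and an adjusted p of 0.74. For Itga7 the difference of fibrin minus printed was -1.08, interval -1.76 to -0.39, with an adjusted p of 0.11. Tln2 had a difference of fibrin minus collagen I of 0.91, interval 0.29 to 1.54, with an adjusted p of 0.40. Sharing of the 2D libraries makes these standard errors too large. A rerun assumed a covariance of 0.5 times the product of both standard errors. In it Itga1, Itga2 and Tln2 passed in fibrin minus collagen I, with adjusted p-values of 0.0072, 0.026 and 0.0053. Itga1, Itga7 and the weakly expressed Itgam passed in fibrin minus printed, with 0.0011, 0.00088 and 0.015. Itga6, Itga9 and Itgb4 passed in Matrigel minus collagen I, with 0.025, 0.021 and 0.019. Further calls were Itga1 and Itgb4 in Matrigel minus fibrin and Itga7 in Matrigel minus printed. The spread of the Wald statistics, 1.11 to 1.57 over the tables, was not corrected for in either version.

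**Figure D4:**
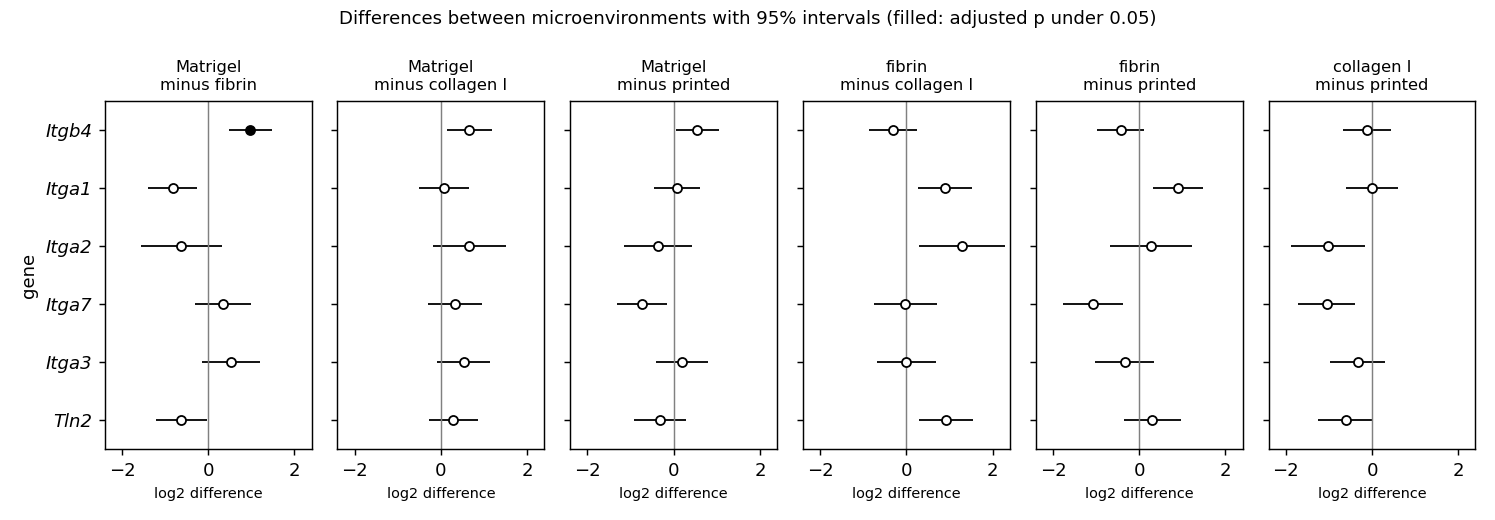
Differences in log2 fold change between pairs of microenvironments for 6 members, with 95% intervals from the authors' deposited standard errors taken as independent; the filled point has an adjusted p under 0.05. Itgb4 in Matrigel minus fibrin, at 0.98, is the 1 filled point, and the intervals of Itga3 cross 0 in all 6 panels.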

How the data were processed

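RNA was sequenced from 15 libraries of mouse iRECs, 3 in each of 5 culture conditions. The submitters' processing notes name DESeq2 1.22.1, featureCounts 1.6.3, STAR 2.6.0b-1, Trim Galore 0.4.3, FastQC 0.72 and build mm10. Not given in the sources used here are the strand setting, the gene annotation and the terms of the fit, so reads of overlapping antisense genes cannot be told apart. The 4 deposited tables hold 0 columns of values per sample, so depth per library is unknown and no test was refitted. As signal the deposited tables give a base mean, which the authors averaged from counts after division by size factors. The deposited fold change is a log2 value over 2D, with the authors' standard error on the same scale. The authors' Wald score is the ratio of these. From it the authors derived two-sided p-values, deposited with Benjamini-Hochberg adjustment, which leaves out weakly expressed genes. The direction was checked through the 2D level that each table implies, which varied between tables by a median SD of 0.00994 (log2) and by at least 0.0915 with any sign turned.

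Levels in 2D and in each microenvironment were solved from base mean and fold change, after the tables were put on a common scale. For the per kb values they were divided by the joined length of all GENCODE exons of the gene. The fold changes appear shrunken towards 0, so levels and fold changes need not match exactly. Differences between microenvironments used a two-sided normal p with Benjamini-Hochberg adjustment over all genes of each pair; the procedure was tested on simulated data. Python 3.11.15, pandas 2.3.3, numpy 2.4.6, scipy 1.17.1 and matplotlib 3.10.9 were used. All members whose base mean was 100 or more in at least 1 table are named with values, and the others by range. The members, their roles and the lists (focal adhesion, membrane partners, ligands, further receptors, and leukocyte, endothelial, fibroblast and renal epithelial markers) were chosen with earlier results of these data known. Alternatives were other thresholds, other filters on low base means, the spread of the Wald statistics, a minimum fold change, the covariance through shared 2D libraries and unshrunken fold changes; the common scale for the last was chosen after seeing the data. Some genes of these lists are counted but not reported here by name.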

Additional observations from a re-analysis of the deposited data

How the results depend on the processing

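Calls among the members depended on the assumed spread. With the Wald statistics divided by their own spread over all genes, 1 member passed in Matrigel (of 3), 1 in fibrin (of 4) and 1 in collagen I (of 6), while the counts over all genes went from 928 to 372, from 1215 to 336, from 1570 to 145 and, in the printed cultures, from 481 to 278. At a threshold of 0.01, 1, 2 and 3 members passed in Matrigel, fibrin and collagen I, and at 0.1, 6 in Matrigel and 7 in fibrin. With a minimum absolute change of 1 (log2) required as well, 1, 1 and 3 passed. In the printed cultures the count stayed at 1 under all 6 alternatives. Both changes of the filter on low base means left each count within 1.5 times its main value. With the covariance through the shared 2D libraries, 2 members differed in Matrigel minus fibrin, 3 in Matrigel minus collagen I, 1 in Matrigel minus printed, 3 in fibrin minus collagen I, 3 in fibrin minus printed and 2 in collagen I minus printed. Counts over all genes are given here only for the division by the spread. The other counts of members in these alternatives therefore cannot be read against a background. Unshrunken fold changes moved 7 of 125 named values by more than their standard error, and 2 of 125 on a common scale, Itga2 in fibrin to 0.55 and Itgam in fibrin to 1.86; no called value changed sign. No paired analysis was possible because the tables hold no values per library, so the passage as a block and leaving out each replicate were not run.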
